A study of Homo sapiens with 6 samples.

Results

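The mRNA levels of 9 genes that sense nucleic acids or relay interferon signals were followed in 6 RNA-seq libraries of a human cell line. The genes were picked by symbol, for their function and with earlier results of these data known. The genes are DDX58 (the older symbol of RIG-I), IFIH1, DHX58, TLR3, MAVS, STAT2, IRF1, IRF7 and IRF9. They are 9 of the 58884 genes in the deposited table. The cells were immortalized human ventricular cardiomyocytes transfected either with a negative control siRNA (group NC) or with an siRNA that targets CIRBP, a cold-inducible RNA-binding protein (group SiCIRBP), 3 libraries each. All libraries share one line, T0519 in the labels, whereas the paper describes its RNA-seq as made in the similar line AC16, and the labels list no further treatment. The paper left NC_1 and SiCIRBP_2 out of its own test, so NC_2, NC_3, SiCIRBP_1 and SiCIRBP_3 were tested first here and all 6 libraries beside them. No label states that the libraries of a group came from separate cultures, so p-values measure only the spread between these libraries.

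RIG-I, MDA5 (the product of IFIH1) and LGP2 (the product of DHX58) are the RIG-I-like receptors, helicases of the cytosol that bind double-stranded RNA. RIG-I and MDA5 signal through MAVS, an adaptor on the outer membrane of mitochondria, whereas TLR3 recognizes double-stranded RNA in endosomes. These routes activate transcription factors of the IRF family and lead to secretion of type I interferon. Interferon acts back on cells through ISGF3, a complex that holds STAT2 and IRF9 and binds the interferon-stimulated response element (ISRE), while the gamma-activated sequence (GAS) is an element of genes that respond to interferon gamma. Several sensors and factors of the pathway are themselves known to be induced by interferon.

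Estimated counts summed to between 25726259 and 29919566 per library. Values are given as CPM, counts scaled by TMM to a common library size on the assumption that most genes do not change. CIRBP, the target of the siRNA, stood at 86.4, 85.8 and 91.0 CPM in NC_1, NC_2 and NC_3, at 54.8 in SiCIRBP_1, at 24.3 in SiCIRBP_2 and at 46.3 in SiCIRBP_3, lower in every SiCIRBP library. The log2 difference was -0.81 ± 0.11 (SE, adjusted p = 0.00828, edgeR) over the 4 libraries, and the adjusted p-value was 0.0576 without NC_2 and 0.106 without NC_3. Of 12 cardiomyocyte markers, TNNI3 and ACTN2 were the 2 past the expression filter of edgeR, which drops genes with few counts in most libraries, MYH6 was at 0 in every library and TNNT2 had 1 count in SiCIRBP_2 and 0 in the others, so most defining transcripts of the labelled cell type were at 0 or too few to test. Of 8 fibroblast markers 7 passed, and of 6 endothelial markers 4. Of 12 leukocyte markers 2 passed and 4 were at 0 throughout. PTPRC, which defines leukocytes, had 1 to 5 counts in a library. The leukocyte markers summed to between 9.37 and 10.9 TPM in NC libraries and between 11.4 and 13.2 in SiCIRBP libraries. The higher sums were those of CD68 alone, at 6.89 to 7.45 TPM in NC libraries and 9.22 to 12.0 in SiCIRBP libraries. CD14, also past the filter, did not rise, at 1.51 to 2.87 TPM in NC libraries and 0.77 to 1.93 in SiCIRBP libraries. Over the 4 libraries 4 of these markers passed the test, with log2 differences of 0.64 for CD68 (macrophages), 2.56 for VWF (endothelium), 0.87 for COL1A1 and -0.38 for PDGFRA (adjusted p = 0.0437, 0.0369, 0.0332 and 0.0297, edgeR). VWF rested on 1 count in NC_2, 4 in NC_3, 16 in SiCIRBP_1 and 15 in SiCIRBP_3. It passed the filter through the SiCIRBP libraries alone, so its call is no support for a rise. TNNI3 (1 to 7 counts in NC libraries, 11 to 30 in SiCIRBP libraries) also passed the filter only through the SiCIRBP group. So did CLDN5, an endothelial marker (4 to 8 counts in NC libraries, 10 to 24 in SiCIRBP libraries). In SiCIRBP_2, COL1A1 went the other way, at 1629 CPM against 2248 or more in NC libraries. The part of these markers in the results was not tested. SiCIRBP_2 stood apart, with Pearson correlations across genes of 0.958 to 0.974 with the other libraries, against 0.980 or more among those 5.

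Promoter sequences were available from RefSeq (GRCh38.p14) for 7 of the 9 genes, DHX58 and IRF7 aside, as windows from 250 bases before to 50 bases after the annotated start. STAT2 and IRF9, subunits of the complex that binds the ISRE, are themselves among the 9 genes. The sequences are given as a description, and their part in the mRNA levels was not tested. An ISRE core (GAAA, any 2 bases, GAAA) and a GAS core (TTC, any 3 bases, GAA, which reads the same on either strand) were searched on both strands. The ISRE core was found in IFIH1 and TLR3, 2 of the 7 windows, and in 3.57% of all 35116 promoters. The GAS core was found in TLR3, IRF1 and IRF9, 3 of the 7, and in 7.66% of all promoters. The 250 bases upstream of the start are shown for these 4 genes on the strand of the gene, with matches in capitals. The positions are chr2:162318685-162318934 (minus strand) for IFIH1, chr4:186068906-186069155 (plus strand) for TLR3, chr5:132490774-132491023 (minus strand) for IRF1 and chr14:24161015-24161264 (plus strand) for IRF9.
IFIH1: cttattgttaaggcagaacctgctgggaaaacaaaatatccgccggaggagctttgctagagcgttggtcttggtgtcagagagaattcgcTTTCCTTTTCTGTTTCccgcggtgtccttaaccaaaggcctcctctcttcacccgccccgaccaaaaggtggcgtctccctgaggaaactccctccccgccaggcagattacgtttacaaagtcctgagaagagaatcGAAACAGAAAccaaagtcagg
TLR3: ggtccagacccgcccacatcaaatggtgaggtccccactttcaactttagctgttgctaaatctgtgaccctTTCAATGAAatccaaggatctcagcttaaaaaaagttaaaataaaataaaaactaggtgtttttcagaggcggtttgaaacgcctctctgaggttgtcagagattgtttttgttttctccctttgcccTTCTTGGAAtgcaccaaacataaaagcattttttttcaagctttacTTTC
IRF1: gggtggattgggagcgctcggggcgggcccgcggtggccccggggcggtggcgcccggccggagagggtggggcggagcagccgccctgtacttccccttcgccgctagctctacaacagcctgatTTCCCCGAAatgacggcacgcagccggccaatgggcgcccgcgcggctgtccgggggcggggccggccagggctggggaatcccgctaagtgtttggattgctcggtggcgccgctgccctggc
IRF9: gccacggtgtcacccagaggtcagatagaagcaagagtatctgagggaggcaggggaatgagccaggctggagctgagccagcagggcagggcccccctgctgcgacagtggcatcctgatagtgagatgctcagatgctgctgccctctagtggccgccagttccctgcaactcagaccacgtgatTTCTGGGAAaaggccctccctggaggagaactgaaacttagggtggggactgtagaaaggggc
In IFIH1, a pair of overlapping ISRE cores ran from -159 to -150 and from -153 to -144 on the opposite strand, and another ran from -21 to -12. In TLR3, the ISRE core from -4 to 5 is cut by the end of the sequence shown, and the GAS cores ran from -178 to -170 and from -50 to -42. The GAS core ran from -124 to -116 in IRF1 and from -63 to -55 in IRF9. In GENCODE, another annotation, IRF9 starts at 24161053, within the window shown, so its GAS core lies inside that gene. Of its 15 transcripts there, 1 holds the first 50 bases after the RefSeq start. These matches describe letters in a window, not binding.

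The SiCIRBP libraries lay on opposite sides of the NC libraries. In SiCIRBP_1, 8 of the 9 genes were below every NC library (36.1% of all 15217 genes were) and MAVS was above (35.8% of all genes). In SiCIRBP_2, 8 of the 9 were above every NC library (40.3% of all genes) and MAVS was below (41.7%). In SiCIRBP_3, 7 were above (37.1%), and MAVS and STAT2 were below (37.5%). The same 8 genes were below every NC library in SiCIRBP_1 and above every one in SiCIRBP_2, as were 9.59% of all genes. They also shared the order of SiCIRBP_1 lowest and SiCIRBP_2 highest, seen in 22.4% of all genes. The median difference of the 9 genes from the NC mean, as log2(CPM + 0.5), was -0.52 in SiCIRBP_1, 1.69 in SiCIRBP_2 and 0.35 in SiCIRBP_3, and that of all genes was -0.01 in SiCIRBP_2 and nearer 0 in the other two. In TPM, the deposited level per transcript length, 8 genes were again below in SiCIRBP_1 and 8 above in SiCIRBP_2, but only 4 were above in SiCIRBP_3, where DDX58, TLR3 and IRF9 lay within the NC range, and MAVS was within it in SiCIRBP_1. The median TPM difference of all genes was -0.21 in SiCIRBP_2 and -0.08 in SiCIRBP_3 on the log2 scale.

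**Figure D1:**
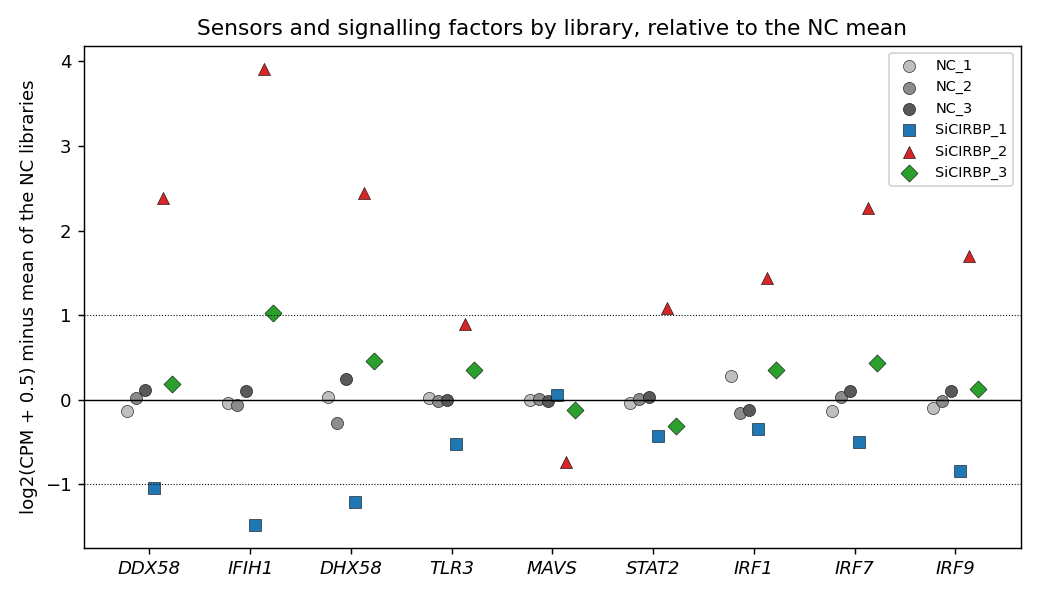
Difference of each library from the mean of the 3 NC libraries on the log2(CPM + 0.5) scale (vertical axis) for the 9 genes (horizontal axis), with circles for NC libraries, squares for SiCIRBP_1, triangles for SiCIRBP_2, diamonds for SiCIRBP_3 and dotted lines at 2-fold. SiCIRBP_2 lies highest for every gene but MAVS, where it lies lowest, and SiCIRBP_1 lies below all NC libraries for every gene but MAVS.

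Over the 4 libraries, 1 of the 9 genes, STAT2, passed the quasi-likelihood test of edgeR at an adjusted p-value under 0.05. It was lower in the SiCIRBP group, as were 9.76% of the 15421 genes tested, and 9.62% were higher. Over 6 libraries edgeR called 0 of the 9 and 0% of 15217 genes, and IFIH1 alone of the 9 had an unadjusted p-value under 0.05, as had 23.7% of all genes. DESeq2 called 0 of the 9 and 9.3% of 14421 genes over 6 libraries, with IFIH1 again alone under an unadjusted 0.05 (25.2% of all genes). None of the 9 had its SiCIRBP libraries all above or all below the NC libraries, which 16.2% and 16.6% of all genes did. An exact two-sided permutation test of 3 libraries against 3, which can give no p below 0.1, gave 0.4 for MAVS, 1 for STAT2 and values between these for the other 7. The SiCIRBP libraries spanned at least 4-fold in DDX58, IFIH1, DHX58, IRF7 and IRF9, 5 of the 9, and in 1.37% of all genes. In bulk RNA, fewer cells that express a gene and less RNA per cell cannot be told apart.

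IFIH1 (chr2:162267079-162318703, minus strand in GRCh38), which encodes MDA5, a receptor for long double-stranded RNA, had the widest range of the 9 genes. Its CPM was 3.08, 3.03 and 3.44 in NC_1, NC_2 and NC_3, 0.822 in SiCIRBP_1, 54.9 in SiCIRBP_2 and 6.98 in SiCIRBP_3. The NC libraries were close together, 1 SiCIRBP library lay below them and the others lay above. Relative to the NC mean, and on the log2(CPM + 0.5) scale used for all folds of single libraries, IFIH1 was 0.359-fold in SiCIRBP_1, 15.04-fold in SiCIRBP_2 and 2.03-fold in SiCIRBP_3. It was the one gene of the 9 at least 2-fold above the NC mean in SiCIRBP_3, where 1.53% of all genes were. The library of SiCIRBP_1 held 24 IFIH1 counts (exact Poisson 95% interval 15.4 to 35.7), that of SiCIRBP_2 1411 and that of SiCIRBP_3 196, against 78 to 105 in the NC libraries. Such intervals cover counting error only. In edgeR the log2 difference between the groups was 0.26 ± 0.78 (SE, adjusted p = 0.832) over 4 libraries, 2.71 ± 1.15 (SE, adjusted p = 0.204) over 6 and 0.29 without SiCIRBP_2. Without the filter on low counts, IFIH1 passed over 6 libraries (adjusted p = 0.0448, edgeR), as did 3.15% of 28001 genes.

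DDX58 (chr9:32455705-32526324, minus strand) encodes RIG-I, which recognizes RNA with a triphosphate at its end, and was more abundant. NC_1, NC_2 and NC_3 held 19.6, 21.8 and 23.3 CPM, SiCIRBP_1 held 10.2, SiCIRBP_2 held 115 and SiCIRBP_3 held 24.5. DDX58 was thus 0.487-fold of the NC mean in SiCIRBP_1, 5.22-fold in SiCIRBP_2 and 1.13-fold in SiCIRBP_3, the last just above the highest NC library. The group difference in edgeR was -0.38 ± 0.35 on the log2 scale (SE, adjusted p = 0.478) for 4 libraries and 1.20 ± 0.73 (SE, adjusted p = 0.338) for 6. It turned to -0.31 when SiCIRBP_2 alone was left out of the 6.

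DHX58 (chr17:42101404-42112733, minus strand) encodes LGP2, which lacks the signalling domains of RIG-I and MDA5 and modulates them. It was at 3.19, 2.49 and 3.80 CPM in NC_1, NC_2 and NC_3, while SiCIRBP_1 was at 1.06, SiCIRBP_2 at 19.3 and SiCIRBP_3 at 4.45. Its NC libraries were the most spread of the 9 genes (SD 0.27 on the log2 scale), and SiCIRBP_3 exceeded the highest of them by less than that. The folds of the NC mean were 0.431 in SiCIRBP_1 and 5.46 in SiCIRBP_2. By edgeR the groups differed by -0.20 ± 0.59 (log2, SE, adjusted p = 0.834) over 4 libraries, by 1.38 ± 0.83 (SE, adjusted p = 0.336) over 6 and by -0.20 without SiCIRBP_2. The 3 receptors were the genes at least 2-fold below the NC mean in SiCIRBP_1, as were 1.45% of all genes. SiCIRBP_3 was at least 2-fold above SiCIRBP_1 in the same 3 genes and in 1.26% of all genes.

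TLR3 (chr4:186069152-186088069, plus strand), the endosomal sensor, was the least abundant of the genes. Its level was 0.771, 0.738 and 0.754 CPM in NC_1, NC_2 and NC_3, 0.377 in SiCIRBP_1, 1.83 in SiCIRBP_2 and 1.10 in SiCIRBP_3, the order also seen in the receptors of the cytosol. These values rest on 11 to 47 counts per library. The exact Poisson 95% interval of SiCIRBP_2 (1.34 to 2.43 CPM) lay above those of the NC libraries, which ended at 1.17 or lower. That of SiCIRBP_1 (0.188 to 0.674) overlapped them, and an overlap of intervals does not decide whether its lower value, from 11 counts, differs. The edgeR estimate was -0.02 ± 0.55 (log2, SE, adjusted p = 0.985) over 4 libraries and 0.54 ± 0.52 (SE, adjusted p = 0.543) over 6.

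MAVS (chr20:3846799-3876123, plus strand), the adaptor on which RIG-I and MDA5 converge, did not follow the receptors. It measured 184, 186 and 183 CPM in NC_1, NC_2 and NC_3, then 192 in SiCIRBP_1, 111 in SiCIRBP_2 and 169 in SiCIRBP_3. Against an SD of 1.70 CPM among NC libraries, MAVS was 0.602-fold of their mean in SiCIRBP_2 and 0.920-fold in SiCIRBP_3. The edgeR estimate was -0.03 ± 0.09 (log2, SE, adjusted p = 0.847) with 4 libraries and -0.23 ± 0.19 (SE, adjusted p = 0.486) with 6. In TPM, DDX58, IFIH1 and DHX58 together reached 0.485, 0.469 and 0.579 times the level of MAVS in NC_1, NC_2 and NC_3. This ratio was 0.197 in SiCIRBP_1, 5.76 in SiCIRBP_2 and 0.719 in SiCIRBP_3, so receptor transcripts outnumbered those of the adaptor in SiCIRBP_2 alone of the 6 libraries.

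**Figure D2:**
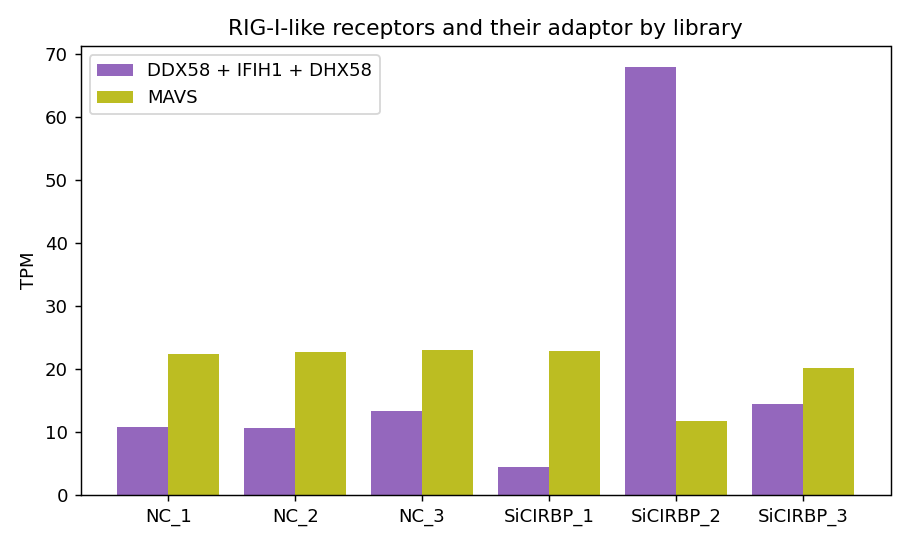
Summed TPM of DDX58, IFIH1 and DHX58 (purple bars) and TPM of MAVS (olive bars) in each of the 6 libraries. In SiCIRBP_2 the receptors sum to 67.9 TPM and MAVS is at 11.8, whereas MAVS is the higher bar in the other 5 libraries.

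STAT2 (chr12:56341597-56360155, minus strand), a subunit of ISGF3, was the gene that fell over the 4 libraries. NC_2 and NC_3 held 42.1 and 43.0 CPM, SiCIRBP_1 and SiCIRBP_3 held 31.1 and 33.8, and the groups did not overlap. The difference was -0.39 ± 0.10 on the log2 scale (SE, adjusted p = 0.0409, edgeR). DESeq2 called it as well (adjusted p = 0.0380), with 12.3% of 12663 genes called lower. The log2 difference was -0.41 without NC_2 and -0.38 without NC_3. STAT2 passed in neither of these fits, which leave 1 NC library and in which far fewer genes of any kind passed. Of the libraries left out, NC_1 was at 40.9 CPM, beside the other NC libraries, and SiCIRBP_2 at 89.8, 2.13-fold of the NC mean. Over 6 libraries the difference was of the opposite sign, 0.29 ± 0.38 (log2, SE, adjusted p = 0.648, edgeR).

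IRF7 (chr11:612553-615999, minus strand), which amplifies the production of type I interferon, had the widest range of the 3 IRF genes among the 9. Its CPM was 21.0, 23.7 and 24.8 in NC_1, NC_2 and NC_3, 16.2 in SiCIRBP_1, 113 in SiCIRBP_2 and 31.6 in SiCIRBP_3. SiCIRBP_2 and SiCIRBP_3 were 4.80-fold and 1.36-fold of the NC mean, above all NC libraries, while SiCIRBP_1 was 0.707-fold and below them. Between the groups edgeR gave -0.02 ± 0.28 (log2, SE, adjusted p = 0.962) for 4 libraries, 1.21 ± 0.60 (SE, adjusted p = 0.262) for 6 and 0.04 without SiCIRBP_2.

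IRF1 (chr5:132481609-132490798, minus strand), an activator induced by interferon gamma among other signals, had a narrower range. The levels were 30.3, 22.2 and 22.8 CPM in NC_1, NC_2 and NC_3, 19.5 in SiCIRBP_1, 68.2 in SiCIRBP_2 and 31.9 in SiCIRBP_3. NC_1 stood above the other NC libraries and close to SiCIRBP_3. The edgeR estimates were 0.19 ± 0.22 (log2, SE, adjusted p = 0.569) over 4 libraries, 0.67 ± 0.40 (SE, adjusted p = 0.338) over 6 and 0.03 without SiCIRBP_2. AC116366.3, annotated across all of IRF1 on the opposite strand, was at 10.1 CPM in SiCIRBP_1 and between 14.0 and 15.9 in the other libraries, and without a stated strand setting its reads and those of IRF1 cannot be told apart.

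IRF9 (chr14:24161053-24166565, plus strand) gives ISGF3 its DNA binding. It was found at 50.7, 53.9 and 58.5 CPM in NC_1, NC_2 and NC_3, at 30.1 in SiCIRBP_1, 177 in SiCIRBP_2 and 59.5 in SiCIRBP_3. These are 0.559-fold, 3.24-fold and 1.10-fold of the NC mean, and SiCIRBP_3 lay only just above the highest NC library. By edgeR the log2 difference was -0.33 ± 0.28 (SE, adjusted p = 0.441) with 4 libraries, 0.71 ± 0.54 (SE, adjusted p = 0.434) with 6 and -0.28 without SiCIRBP_2. Without the filter on low counts it passed over 4 libraries (adjusted p = 0.0351, edgeR), when 9.38% of 26574 genes were called lower. The value of IRF9 is uncertain, since AL136295.5 covers all of it on the same strand and holds 45.2% of the 31-base words in IRF9 transcripts. AL136295.5 was at 12.9 to 18.3 CPM in NC libraries, 23.3 in SiCIRBP_1, 28.1 in SiCIRBP_2 and 27.2 in SiCIRBP_3, above the NC libraries in all 3. Summing both genes, an alternative chosen after seeing the data, gave 0.762-fold of the NC mean in SiCIRBP_1, 2.91-fold in SiCIRBP_2 and 1.23-fold in SiCIRBP_3, and a log2 difference over 4 libraries of -0.04 (adjusted p = 0.921, edgeR).

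Compared per transcript length, IRF9 was the highest of the 9 genes in every library, at 74.6 ± 11.1 TPM (SD, n = 3) in the NC group. IRF1 at 25.5 ± 4.21 and IRF7 at 24.2 ± 1.72 TPM (SD, n = 3) followed. Next were MAVS at 22.7 ± 0.339 and STAT2 at 20.1 ± 1.52 TPM (SD, n = 3). Any 2 of IRF1, IRF7 and MAVS differed by less than the larger SD of the pair. The receptors lay lower, with DDX58 at 6.61 ± 0.740, DHX58 at 3.38 ± 0.856 and IFIH1 at 1.65 ± 0.125 TPM (SD, n = 3), and TLR3 was last at 0.303 ± 0.126 TPM (SD, n = 3). In SiCIRBP_2, MAVS was at rank 8 in place of 4 by NC mean, and IFIH1 at rank 6 in place of 8. IFIH1 was 0.241 to 0.258 times as abundant as DDX58 in NC libraries, 0.186 times in SiCIRBP_1, 0.786 times in SiCIRBP_2 and 0.432 times in SiCIRBP_3, again in TPM.

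**Figure D3:**
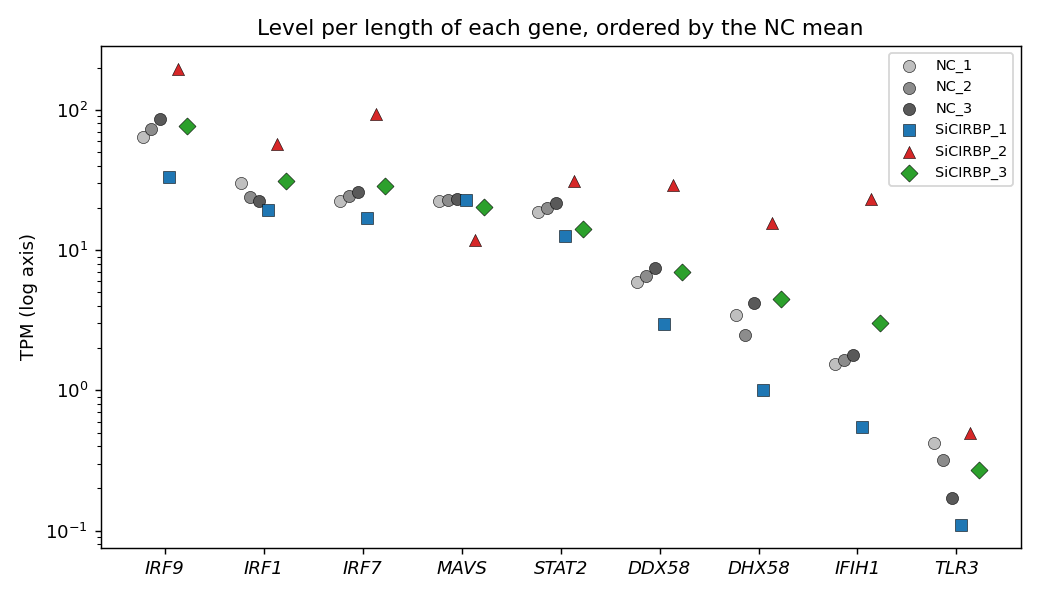
Deposited TPM (log axis) of the 9 genes, ordered by their mean in the NC group, with 1 point per library (circles NC, squares SiCIRBP_1, triangles SiCIRBP_2, diamonds SiCIRBP_3). IRF9 is highest and TLR3 lowest in all libraries, and MAVS is the one gene whose triangle lies under its circles.

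Other genes of the pathway were described from lists set by function, with earlier results of these data known, so their shares are descriptive. Of 15 other sensors of nucleic acids, 9 passed the filter. Over 4 libraries edgeR and DESeq2 called 0 of them, with 0 at an unadjusted p-value under 0.05 in edgeR, and over 6 libraries both called 0, with 2 unadjusted. All 9 were below the NC mean in SiCIRBP_1 and above it in SiCIRBP_2, and 7 were at least 2-fold above in SiCIRBP_2, as were 7 of the 9 genes described above and 5.2% of all genes. OAS1, whose product makes the messenger that activates RNase L, was at 6.97, 8.12 and 7.77 CPM in NC_1, NC_2 and NC_3, 1.68 in SiCIRBP_1, 149.9 in SiCIRBP_2 and 16.9 in SiCIRBP_3. The related OAS2 was 0.263-fold, 10.7-fold and 2.16-fold of the NC mean in SiCIRBP_1, SiCIRBP_2 and SiCIRBP_3, and IFI16, a sensor of DNA, was 0.613-fold, 8.87-fold and 1.12-fold.

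Of 18 adaptors, ubiquitin ligases and kinases, 17 passed the filter, and 1 rose and 2 fell over the 4 libraries, where 9.62% of all genes rose and 9.76% fell, so the list was near the background. ZC3HAV1 (ZAP, which binds CpG-rich RNA) rose by 0.92 on the log2 scale (adjusted p = 0.0198, edgeR). NLRX1, a mitochondrial protein that restrains MAVS signalling, fell by 0.50 (adjusted p = 0.0319, edgeR), and RNF135, a ligase that acts on RIG-I, fell by 0.77 (adjusted p = 0.0434, edgeR). NLRX1 was at 14.6 CPM in NC_1, which the 4 libraries leave out, close to the 13.5 to 14.5 CPM of the SiCIRBP libraries. NC_2 and NC_3 were at 18.8 and 19.6 CPM, and the log2 difference of NLRX1 over 6 libraries was -0.35. RNF135 was above the NC libraries (7.04 to 12.0 CPM) in SiCIRBP_2, at 14.5 CPM, and its log2 difference over 6 libraries was -0.07. ZC3HAV1 was above all NC libraries (32.5 to 45.9 CPM) in SiCIRBP_1, SiCIRBP_2 and SiCIRBP_3, at 49.9, 103 and 73.4 CPM. In SiCIRBP_2, 5 of the 17 were at least 2-fold above the NC mean, led by TMEM173 (STING, the adaptor of cytosolic DNA sensing) at 3.58-fold, TRIM38 at 3.27-fold and TRIM25, a ligase, at 2.95-fold.

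Interferon transcripts were scarce. Of 21 interferon genes, 17 were at 0 in every library, and IFNE alone passed the filter, with 6 to 17 counts per library. IFNB1, the gene of interferon beta, had 13 counts in SiCIRBP_2, 2 in SiCIRBP_3, 1 in NC_2 and 0 in NC_1, NC_3 and SiCIRBP_1. A count of 0 allows up to 3 counts per library (a one-sided 95% limit, unlike the two-sided intervals given for other counts), and IFNB1 exceeded this in SiCIRBP_2 alone. IFNA1 had 5 counts in NC_3 and 0 in the others.

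Of 15 interferon receptors, Janus kinases and other STATs, 13 passed the filter, and 4 fell over the 4 libraries, as did 9.76% of all genes. The log2 differences were -0.83 for STAT5B, -1.30 for STAT5A, -0.43 for STAT3 and -0.43 for JAK2, a kinase of the interferon gamma receptor (adjusted p = 0.00688, 0.0122, 0.0163 and 0.0393, edgeR). STAT5B, STAT3 and JAK2 were below every NC library in each SiCIRBP library, whereas STAT5A was above them (8.59 to 10.1 CPM) in SiCIRBP_2, at 11.2 CPM, with a log2 difference of -0.57 over 6 libraries. Of 9 further IRF genes and IRF-binding proteins, 8 passed the filter, and 4 fell and 1 rose (9.76% and 9.62% of all genes). IRF2BP2 fell by 0.80, IRF5 by 1.44, IRF2 by 0.54 and IRF2BP1 by 0.48 on the log2 scale (adjusted p = 0.00602, 0.0267, 0.0310 and 0.0346, edgeR). IRF2 was above the NC libraries in SiCIRBP_2, at 21.2 CPM against 18.9 to 20.5, and IRF2BP1 in NC_1, at 59.2 CPM, was below its 64.6 in SiCIRBP_1. IRF2BP2 and IRF5 were lower in NC_1 (79.7 and 1.23 CPM) than in NC_2 (119 and 2.10) and NC_3 (123 and 2.82). In every SiCIRBP library both were lower still, at up to 73.2 and 0.962 CPM. IRF3, the factor activated directly downstream of MAVS, rose by 0.37 (adjusted p = 0.0294, edgeR). It was at 64.2, 55.1 and 53.3 CPM in NC_1, NC_2 and NC_3, 70.7 in SiCIRBP_1, 74.1 in SiCIRBP_2 and 69.6 in SiCIRBP_3, so each SiCIRBP library lay above all NC libraries.

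Of 13 feedback inhibitors, PTPN1 rose by 0.30 (adjusted p = 0.0492, edgeR) and PTPN2, a phosphatase of Janus kinases, fell by 0.34 (adjusted p = 0.0473, edgeR) over the 4 libraries (9.62% of all genes rose and 9.76% fell), and DESeq2 called neither. PTPN2 was above the NC libraries in SiCIRBP_2, at 52.5 CPM against 44.2 to 49.6. USP18, which restrains signalling at the type I interferon receptor, was 0.849-fold, 17.4-fold and 2.01-fold of the NC mean in SiCIRBP_1, SiCIRBP_2 and SiCIRBP_3. Of 32 interferon target genes, 30 passed the filter. In SiCIRBP_2 all 30 were at least 2-fold above the NC mean, led by IFI44L (34.5-fold), IFIT1 (33.2-fold) and MX1 (26.3-fold), where 5.2% of all genes were. In SiCIRBP_3, 9 were (1.53% of all genes), and in SiCIRBP_1 0 were and 9 were at least 2-fold below (1.45% of all genes). Of the list, 2 genes fell over the 4 libraries and 0 rose (9.76% and 9.62% of all genes). IFITM1 fell by 0.83 and UBE2L6 by 0.76 (adjusted p = 0.00903 and 0.0323, edgeR), and both were above the NC libraries in SiCIRBP_2, at 3.35-fold and 6.39-fold of the NC mean. Over 6 libraries edgeR called 0 genes of all these lists, with 12 interferon target genes, 4 receptors, kinases or STATs, 4 further IRF genes, 3 feedback inhibitors and 1 adaptor at an unadjusted p-value under 0.05. These are counts of 30, 13, 8, 13 and 17 genes past the filter, against 23.7% of all genes, a share that the feedback inhibitors matched closely and the adaptors did not reach. DESeq2 called 1 adaptor (ZC3HAV1), 1 STAT (STAT5B) and 2 of the further IRF genes (IRF5 and IRF2BP2) over 6 libraries and 0 interferon target genes.

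**Figure D4:**
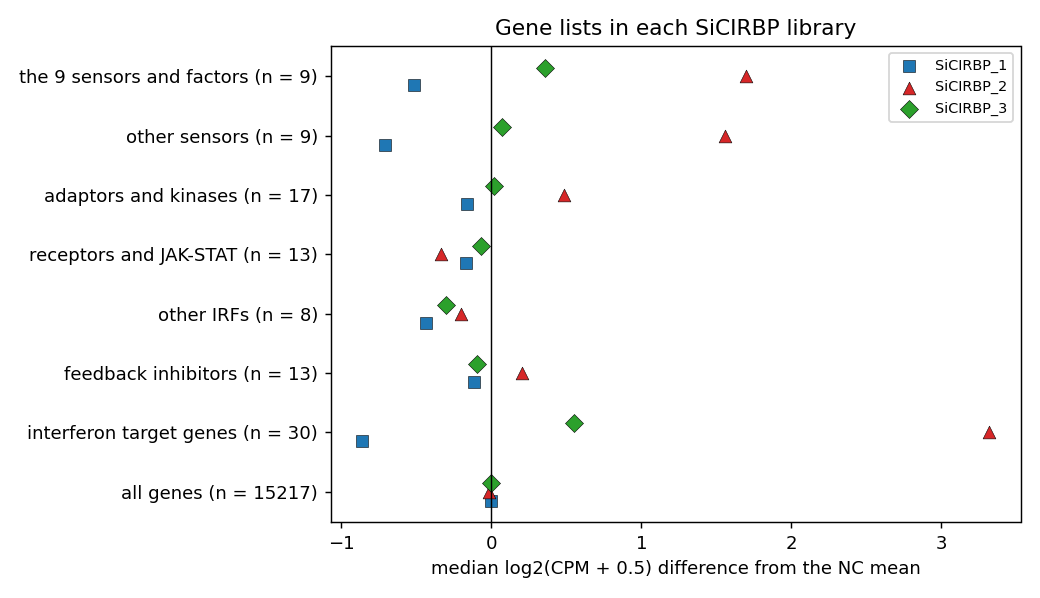
Median difference from the NC mean on the log2(CPM + 0.5) scale (horizontal axis) of the genes of each list past the expression filter, in SiCIRBP_1 (squares), SiCIRBP_2 (triangles) and SiCIRBP_3 (diamonds). The 9 genes, the other sensors and the interferon target genes spread from below 0 in SiCIRBP_1 to 1.56 or more in SiCIRBP_2, whereas the median of all genes stays near 0.

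Genes with a profile like that of the RIG-I-like receptors were sought among 13299 genes with a mean of at least 1 CPM, by Pearson correlation over the 6 libraries with the mean profile of DDX58, IFIH1 and DHX58. The closest were SLC15A3 (0.999), C3orf38, ZNF273, ZSWIM4, UPF1, BIRC2, EPSTI1 and OAS1 (0.995). With 6 libraries, of which SiCIRBP_2 stands apart, 4.37% of these genes had a correlation above 0.9. SLC15A3, a transporter of histidine and peptides, was at 2.43 CPM in SiCIRBP_1, 39.6 in SiCIRBP_2, 9.08 in SiCIRBP_3 and 5.92 to 7.15 in NC libraries. UPF1, of nonsense-mediated decay, had the same order within the narrower range of 195 to 239 CPM.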

How the data were processed

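The authors deposited an estimated count and a TPM value for each of 58884 genes in each of 6 libraries, made with fastp, HISAT and RSEM on hg38 per the submitters' processing notes. Versions, annotation release and strand setting are not given in the sources used here. The deposited tables also hold the fold changes and p-values of the authors' own comparison, which were not used. Groups and replicate numbers came from the sample titles.

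Estimated counts were rounded and analysed in R 4.3.3 with edgeR 4.0.16 (TMM, filterByExpr, glmQLFit, glmQLFTest, Benjamini-Hochberg adjustment over all genes tested, threshold 0.05). SEs were computed as |log2 difference|/√F. Differences of single libraries from the NC mean have no replicate check. Exact permutation tests used scipy 1.17.1. Locations came from GENCODE 29 (GRCh38), which held 58611 of the identifiers. The fits were tested on simulated data in which no library stood apart as SiCIRBP_2 does, so that test does not cover the spread seen here. The 9 genes and the lists were chosen with earlier results of these data known. Named are the 9, CIRBP, per list up to 3 passing genes with the smallest p-value and up to 3 with the largest difference in SiCIRBP_2 (IFIH1, DHX58 and DDX58 among the 9), and 8 genes by correlation. Of these, JAK1, IRF4, ADAR and some cell type markers enter only the counts of their lists, and a further gene of the rule is not reported here. Genes outside this rule, such as PTPRC, TNNT2, MYH6, IFNB1, IFNA1, IRF2 and the genes overlapping IRF1 and IRF9, were named beside a result that turns on them, after their values were seen. Alternatives were DESeq2 1.42.0, RLE size factors, other filters on low counts, TPM, other pseudocounts, the replicate block and leaving out each library.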

Additional observations from a re-analysis of the deposited data

How the results depend on the processing

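Over 4 libraries, RLE size factors, DESeq2 (which gave TLR3 no adjusted p-value) and a minimum of 10 counts in every library changed no direction and no call of the 9 genes. Without a filter on low counts, 4615 genes and 2 of the 9 passed, against 2989 and 1. With 1 library left out, between 64 (without NC_3) and 7048 (without SiCIRBP_1) genes and between 0 (without either NC library) and 6 of the 9 passed (DDX58, IFIH1, DHX58, STAT2, IRF7 and IRF9, all lower, without SiCIRBP_3, and 4 without SiCIRBP_1, of which IFIH1, IRF1 and IRF7 were higher and STAT2 lower), where the lone library of a group is assumed to vary like the other group. The log2 difference of CIRBP was then -0.94 to -0.70, with adjusted p-values up to 0.106 (edgeR, without NC_3). For the 9 genes it was -1.15 to 0.11 for DDX58, -1.98 to 1.10 for IFIH1, -1.58 to 0.48 for DHX58, -0.98 to 0.56 for TLR3, -0.13 to 0.0557 for MAVS, -0.46 to -0.34 for STAT2, -0.21 to 0.50 for IRF1, -0.59 to 0.37 for IRF7 and -0.90 to 0.0758 for IRF9. SiCIRBP_3 was the library left out at the lower end, except for MAVS, where it was SiCIRBP_1.

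Over 6 libraries edgeR called 0 genes, and DESeq2 called 1341, edgeR without a filter 881 (with 1 of the 9) and edgeR with the replicate block 1 (with 0 of the 9). Deviations of same-numbered libraries from the mean of their group correlated at -0.102, 0.0150 and -0.0244 across genes for numbers 1, 2 and 3, so the numbers are not taken as pairing. With 1 library left out, between 0 and 1118 genes (the latter without SiCIRBP_2, and 18 without NC_1) and 0 of the 9 passed. The log2 difference was then -0.31 to 1.70 for DDX58, 0.29 to 3.28 for IFIH1, -0.20 to 1.91 for DHX58, -0.0319 to 0.96 for TLR3, -0.39 to -0.0265 for MAVS, -0.37 to 0.57 for STAT2, 0.0342 to 1.00 for IRF1, 0.0422 to 1.65 for IRF7 and -0.28 to 1.13 for IRF9. SiCIRBP_2 was the library left out at the end nearest to 0 for MAVS and at the lower end for the other 8.

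The number of the 9 genes at least 2-fold from the NC mean was 3 in SiCIRBP_1 (4 in TPM, 2 to 3 with 1 NC library left out) and 7 in SiCIRBP_2 (6 in TPM, 8 with a pseudocount of 0.1, 7 with 1 NC library left out). In SiCIRBP_3 it was 1, but 0 in TPM, 0 with a pseudocount of 1, and 0 to 1 with 1 NC library left out. Depth limits TLR3 most. The cause of these changes was not tested.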
